A study of Homo sapiens with 6 samples.

Results

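This account concerns 10 genes of the immediate early response: the zinc finger factor genes EGR1, EGR2 and EGR3, the AP-1 subunit genes FOS, FOSB, FOSL1, FOSL2, JUN and JUNB, and MYC. They were taken by name from the deposited gene-level count table, and all 10 were found among its 26364 genes. The 10 were chosen with earlier results of these data known, so shares over all genes given beside them are description only. The table covers 6 poly(A)-selected RNA-seq libraries of Ishikawa cells, a human endometrial adenocarcinoma line that carries the estrogen receptor. The lines were the parental line and 2 clones with a knockout of ETV4, a PEA3-group ETS transcription factor gene. There was 1 library per line after 0.1% DMSO, the vehicle, and 1 after 10 nM 17β-estradiol (E2), and all cells had spent the 5 days before treatment in hormone-depleted medium with 10% charcoal-treated serum. The treatment time differs within the labels, which give it as 8 h in the protocols and as 1 h in the sample characteristics. Each knockout line is 1 clone, the way the knockout was made is not given in the sources used here, and nothing states that the libraries came from separate cultures of a line. The p-values below therefore measure the spread between these libraries, which for a line may be technical.

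Immediate early genes are transcribed without new protein synthesis when a growth factor, hormone or stress signal reaches a resting promoter, usually through kinases that act on serum response factor, its ETS-family cofactors or CREB. Their transcripts typically appear within minutes, peak early and are degraded quickly, and their protein products then set the later wave of transcription. FOS-family proteins bind DNA only as dimers with JUN-family partners, EGR proteins bind GC-rich sites on their own, and MYC pairs with MAX to raise biosynthetic genes. In estrogen-responsive breast cancer cells MYC, FOS and EGR3 are widely known as early targets of the hormone.

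Promoter windows of EGR1, FOS and JUNB are shown because these genes had the 3 different outcomes under E2, a rise, no call and a fall. They come from RefSeq on GRCh38.p14, run from 250 bases before to 50 bases after the start of transcription, and are written 5′ to 3′ on the gene's strand. Capitals mark the serum response element (CArG box) and the half-site of the cAMP response element, TGACG, each searched on both strands. The windows are chr5:138465229-138465528 on the plus strand for EGR1, chr14:75278578-75278877 on the plus strand for FOS and chr19:12791236-12791535 on the plus strand for JUNB.
EGR1: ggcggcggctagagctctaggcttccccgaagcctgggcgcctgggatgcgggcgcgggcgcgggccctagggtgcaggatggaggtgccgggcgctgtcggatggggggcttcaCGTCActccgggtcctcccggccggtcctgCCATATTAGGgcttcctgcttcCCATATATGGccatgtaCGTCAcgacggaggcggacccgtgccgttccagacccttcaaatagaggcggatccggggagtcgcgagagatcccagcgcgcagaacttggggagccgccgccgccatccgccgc
FOS: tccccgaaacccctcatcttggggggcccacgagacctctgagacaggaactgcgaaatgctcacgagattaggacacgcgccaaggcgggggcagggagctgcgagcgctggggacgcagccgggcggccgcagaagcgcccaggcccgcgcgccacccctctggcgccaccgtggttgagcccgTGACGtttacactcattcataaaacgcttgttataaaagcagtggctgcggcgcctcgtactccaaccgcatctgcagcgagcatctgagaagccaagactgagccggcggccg
JUNB: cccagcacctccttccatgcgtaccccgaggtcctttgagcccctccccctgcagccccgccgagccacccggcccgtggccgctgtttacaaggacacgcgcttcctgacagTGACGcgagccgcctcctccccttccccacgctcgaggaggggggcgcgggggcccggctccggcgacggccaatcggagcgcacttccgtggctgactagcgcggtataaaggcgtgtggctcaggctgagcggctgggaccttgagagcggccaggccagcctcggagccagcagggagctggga

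The EGR1 window held 2 CArG boxes, which began 105 and 83 bases before the start, and 2 cAMP half-sites. The FOS and JUNB windows each held 1 cAMP half-site and no CArG box. Sites more than 250 bases before the start lie outside the windows and were not searched, so a CArG box further upstream would be missed. Among the other windows, 1 of those of EGR2, which has several annotated starts, held 1 CArG box. Promoter windows were found for 7 of the 10 genes, and not for EGR3, FOSL1 and MYC. The half-site TGACG was found in at least 1 window of each of the 7, whatever their outcome under E2. Across all 35116 windows of 300 bases in the table, 1.29% held a CArG box and 24.6% held TGACG. The full palindromic estrogen response element was found in 0.057% of all windows and in none of those of the 7 genes, while its half-site GGTCA, present in 37.4% of all windows, was found at 2 places in the window of FOSB. CCGGAA, 1 form of the sites bound by ETS factors such as ETV4, was present in 17.2% of all windows and among the 7 genes only in that of FOSB. Other forms of ETS site were not searched, so windows without CCGGAA may still hold them. These matches describe letters in a short window and were not tested against the expression values.

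Depth and identity of the libraries were examined across the series. The libraries held between 28037392 and 36829479 counts, and the 10 genes together took 0.0236% to 0.0389% of a library. ETV4 stood at 19.7 and 28.4 CPM (counts per TMM-scaled library size, the unit of all levels here) in the parental libraries and at 2.42 to 3.41 CPM in the knockout libraries. All 11 epithelial markers were above 1 CPM in every library. Of 13 markers of leukocytes, endothelium and stroma, 10 were below 1 CPM in each library 3 or 4 had no count, and their summed level was 52.8 to 89.6 CPM. The summed level of the epithelial markers was 3413 to 3627 CPM in DMSO and 2664 to 2887 CPM in E2, so it was lower in every E2 library, and the summed level of 10 heat shock genes was 5690 to 8348 CPM in DMSO and 7568 to 9801 CPM in E2. The part of either sum in the results below was not tested. In bulk RNA, fewer cells with a transcript and less transcript per cell cannot be told apart.

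The 10 genes covered a wide range of abundance. Per kilobase of exon (merged exons of GENCODE 29), the mean level over the 6 libraries was 38.5 CPM for EGR1, 35.8 CPM for MYC and 25.4 CPM for JUNB. JUN followed at 7.78 CPM per kilobase. FOS had 1.68, FOSL2 1.37 and EGR3 1.32 CPM per kilobase, while EGR2, FOSB and FOSL1 had 0.327, 0.307 and 0.260. The ranges of EGR1 (17.0 to 59.3), MYC (23.8 to 45.7) and JUNB (17.2 to 36.9 CPM per kilobase) overlapped, so their order did not stand beyond the spread between libraries. JUN, at 4.42 to 10.7 CPM per kilobase, lay under all of them and above FOS, FOSL2 and EGR3, whose ranges overlapped each other. FOSL1 rested on 7 to 29 counts, EGR2 on 11 to 54 and FOSB on 32 to 83 counts in a library, which limits what can be seen in them. Only 7 of the 10 genes had a mean of at least 2 CPM.

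**Figure D1:**
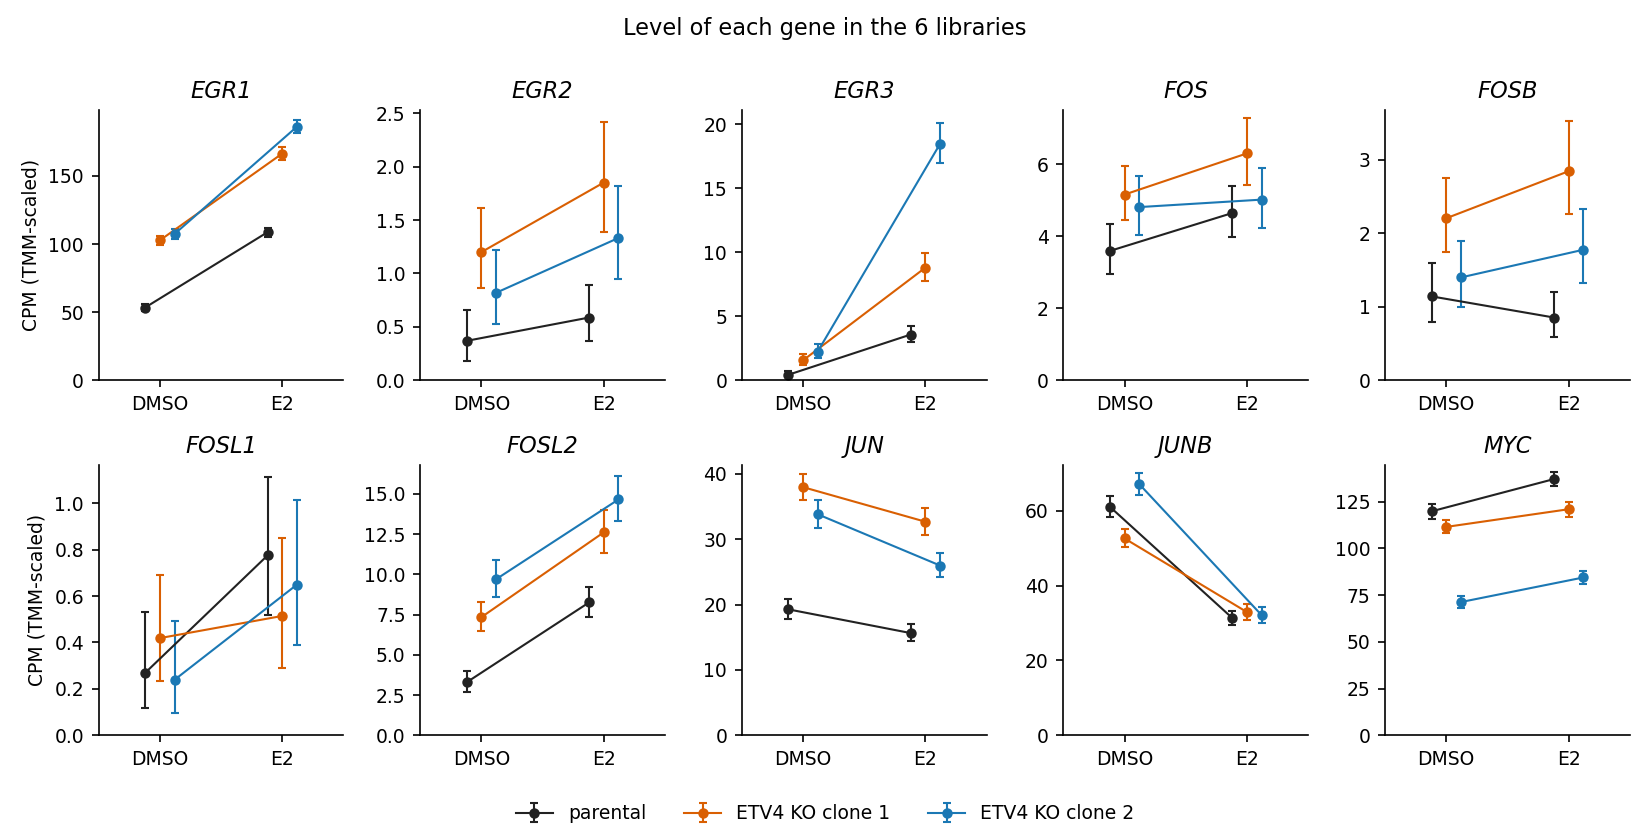
Level of each of the 10 genes in CPM (vertical axes, each from 0) in the DMSO and the E2 library of the parental line (black), knockout clone 1 (orange) and knockout clone 2 (blue). Bars are exact 95% Poisson intervals and cover counting error only. EGR1 and EGR3 are higher and JUNB is lower in E2 in all 3 lines. The parental line lies lowest for EGR1, EGR2, EGR3, FOS, FOSB, FOSL2 and JUN in both treatments.

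The first comparison was E2 against DMSO over the 3 lines. EGR3 and EGR1 rose and JUNB fell, and the other 7 genes did not pass the threshold of an adjusted p of 0.05. The EGR family is made of activators that share a nearly identical DNA-binding domain and are restrained by NAB corepressors. EGR3 went from 0.437 to 3.58 CPM in the parental line, from 1.56 to 8.81 CPM in clone 1 and from 2.25 to 18.5 CPM in clone 2. Every E2 library was above every DMSO library, and the increase was 7.29-fold, 5.46-fold and 8.01-fold in the same order of lines. Over the lines the log2 change was 2.89 (SE 0.35), and the quasi-likelihood test of edgeR, adjusted by Benjamini-Hochberg over all genes tested, gave an adjusted p of 0.0181. The parental DMSO value rests on 13 counts (95% interval 0.233 to 0.747 CPM). A gene on the opposite strand, AC055854.1 in GENCODE 29, overlaps exons of EGR3, and the use of strand in counting is not given in the sources used here, so reads from either cannot be told apart.

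EGR1, the most abundant of the family, went from 53.4 to 109 CPM in the parental line. In clone 1 it went from 103 to 166 CPM and in clone 2 from 107 to 186 CPM. The lowest E2 library, that of the parental line, was just above the highest DMSO library, that of clone 2, so the treatments did not overlap but nearly met. The log2 change was 0.84 (SE 0.12), a 1.79-fold increase, with an adjusted p of 0.0361 in the edgeR test. EGR2, which has a role in nerve myelination and in lymphocytes, had 11 counts in DMSO and 22 in E2 in the parental line, 43 and 54 in clone 1 and 24 and 39 in clone 2. Its log2 change was 0.65 (SE 0.32; adjusted p = 0.294, edgeR). Its scaled level was higher in E2 within each line, while the treatments overlapped between lines.

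Among the JUN family, JUNB, a weaker activator than JUN that can also oppose it, went from 61.0 to 31.3 CPM in the parental line. Clone 1 went from 52.6 to 32.9 CPM and clone 2 from 67.1 to 32.1 CPM. All 3 E2 values lay close together and under every DMSO value. JUNB fell by 0.91 on the log2 scale (SE 0.13), a level 1.88-fold lower, with an adjusted p of 0.0307 in the edgeR test. JUN, the main partner of FOS proteins, went from 19.3 to 15.6 CPM in the parental line, from 38.0 to 32.7 CPM in clone 1 and from 33.8 to 26.0 CPM in clone 2. Its log2 change was -0.29 (SE 0.14) and did not pass (adjusted p = 0.276, edgeR), although the value was lower in E2 within each line.

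In the FOS family no member passed in edgeR. FOSL2, which encodes FRA-2, was at 3.29 and 8.26 CPM in the parental line, 7.34 and 12.6 CPM in clone 1 and 9.70 and 14.7 CPM in clone 2. Each line had the higher value in E2, but parental E2 was below clone 2 in DMSO. The log2 change was 0.89 (SE 0.21; adjusted p = 0.118, edgeR), and DESeq2 called it at an adjusted p of 0.00821. FOS, the classic immediate early gene, was at 3.60 and 4.65 CPM in the parental line, 5.16 and 6.31 CPM in clone 1 and 4.82 and 5.02 CPM in clone 2. Its log2 change was 0.24 (SE 0.19; adjusted p = 0.476, edgeR), and the treatments overlapped. FOSL1, which encodes FRA-1, was at 0.269 and 0.775 CPM in the parental line, 0.419 and 0.514 CPM in clone 1 and 0.239 and 0.649 CPM in clone 2. The treatments did not overlap, but these levels rest on at most 29 counts, and the log2 change of 1.04 (SE 0.41) had an adjusted p of 0.228 in edgeR. FOSB, with 34 and 32 counts in the parental line, 79 and 83 in clone 1 and 41 and 52 in clone 2, had a log2 change of 0.12 (SE 0.34; adjusted p = 0.858, edgeR).

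MYC, whose product drives growth and ribosome production, was at 119.9 and 137 CPM in the parental line, 112 and 121 CPM in clone 1 and 71.3 and 84.5 CPM in clone 2. The E2 value was the higher one in each line by 1.14-fold, 1.08-fold and 1.18-fold, which is less than the distance of clone 2 from the other lines. The log2 change was 0.18 (SE 0.21; adjusted p = 0.640, edgeR).

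Thus 3 of the 10 genes passed, where 1.13% of all 15611 genes tested did, with 0.903% called higher and 0.224% lower. Because the 10 were chosen with earlier results of these data known, the distance from these shares is not a test of the set. With line as a replicate block the same 3 passed, against 2.46% of all genes, and DESeq2 called these and FOSL2, against 7.58% of the genes to which it gave an adjusted p. Of the 7 genes that averaged 2 CPM or more, 5 had the higher value in E2 in all 3 lines and 2 (JUN and JUNB) the lower one, where 26.8% and 26.9% of the 12367 genes at that level did so. The treatments did not overlap, with E2 higher, for 2 of the 7 (12.9% of such genes) and, with E2 lower, for 1 of the 7 (11.6%). None of the 3 passed in the unpaired edgeR test without the parental line, where EGR3 had an adjusted p of 0.0908, JUNB of 0.164 and EGR1 of 0.169, with log2 changes of 2.83, -0.89 and 0.74. That fit is identical to the unpaired fit of the clones alone, given below, and is not a separate result. Without clone 1, where 4.83% of all genes passed, EGR1 also missed the threshold (adjusted p = 0.0890, edgeR). Without clone 2, where 21.6% passed, FOSL2 passed as well, at a log2 change of 1.04 (adjusted p = 2.19e-04, edgeR). With libraries scaled to total counts EGR1 and JUNB missed it narrowly, each at an adjusted p of 0.0535 in edgeR.

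**Figure D2:**
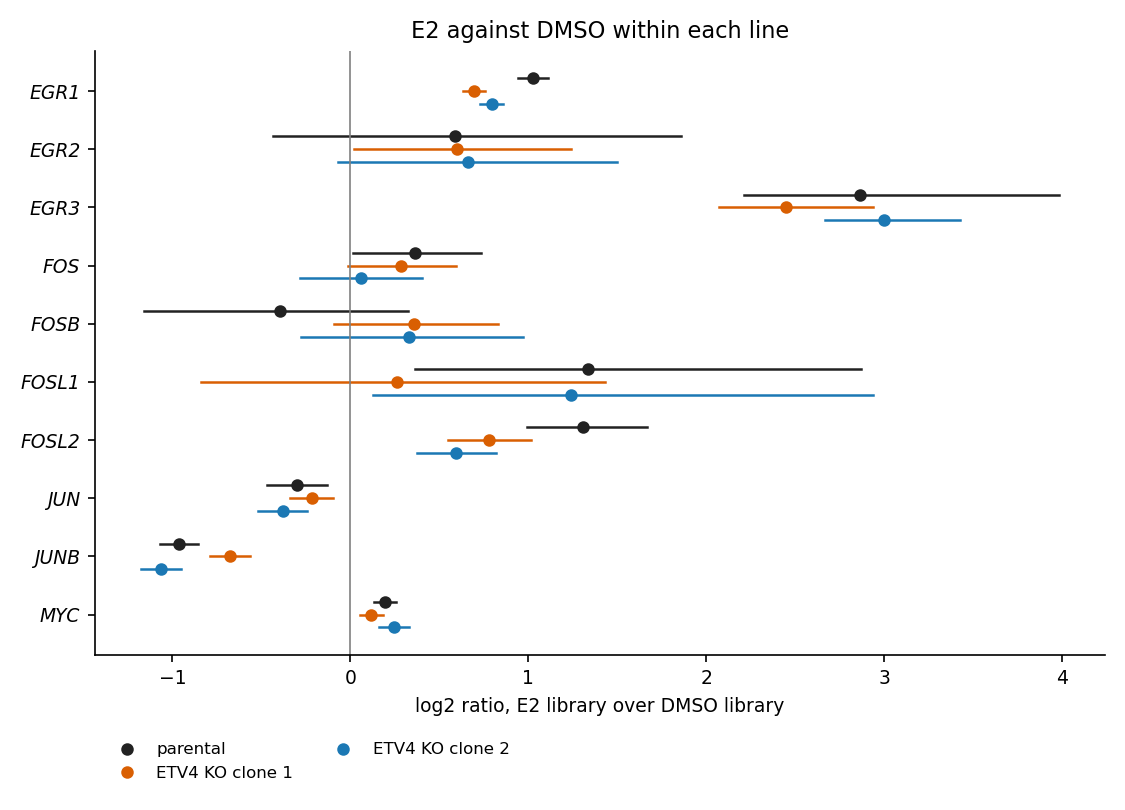
Log2 ratio of the E2 to the DMSO library (horizontal axis) for each of the 10 genes in the parental line (black), clone 1 (orange) and clone 2 (blue). Lines are 95% binomial intervals for counting error only; EGR3 lies at or above 2.45 in all 3 lines, JUNB between -1.06 and -0.68, and FOSB is the one gene for which the parental line and the clones lie on opposite sides of 0.

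GC content moved with the E2 change in the parental line, and these transcripts have a GC content of 50.9% (EGR2) to 64.9% (JUNB). Across 12173 genes, which share the same 2 libraries, the parental line had a Spearman's rho of 0.351 between GC content and E2 change, clone 1 of 0.137 and clone 2 of -0.0501. After each library's trend on GC content and length was removed, the log2 change was 2.84 for EGR3, 0.83 for EGR1 and -0.91 for JUNB, with adjusted p-values from 0.0107 to 0.0125 in edgeR. FOSL2 had 0.73 and an adjusted p of 0.0565 with this correction, and passed at 0.0219 when the replicate block was added (edgeR). JUNB has the highest GC content of the 10, and its log2 ratio of E2 to DMSO in the parental line was -0.96. Whether GC content had a part in the change of any of the 10 genes was not tested.

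The clones were then read alone, to see the response to E2 in cells with the knockout. Over those 4 libraries 0 of the 10 genes passed in edgeR without pairing (3 had done so over all lines), where 0.329% of 14881 genes did. An unadjusted p under 0.05 was found for 4 of the 10, EGR1, EGR3, FOSL2 and JUNB, against 8.70% of all genes. DESeq2 called 3, EGR1, EGR3 and JUNB, against 2.08% of all genes. The DMSO and E2 libraries of a clone come from the same line, and with line as a replicate block the same 4 genes passed, against 15% of all genes. In that paired fit EGR3 rose by a log2 change of 2.77 (SE 0.20), EGR1 by 0.74 (SE 0.14) and FOSL2 by 0.68 (SE 0.15), and JUNB fell by 0.88 on the log2 scale (SE 0.13). The largest of their adjusted p-values was 2.36e-04 in edgeR, for FOSL2. The paired fit has 1 residual degree of freedom and takes its spread from all genes together, so these p-values rest on that shared spread. JUN had a log2 change of -0.31 (SE 0.13) there (adjusted p = 0.0924, edgeR), FOS 0.17 (SE 0.19) and MYC 0.17 (SE 0.13).

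Whether the E2 change differed between clones and parental line was tested as an interaction. For 0 of the 10 genes did it pass, with or without the replicate block, and in the unpaired fit 0 of all 15611 genes passed in edgeR, with 1190 at an unadjusted p under 0.05 and 26 called by DESeq2 of the 2900 to which it gave an adjusted p, while the paired fit called 15.8%. None of the 10 had an unadjusted p under 0.05 without the block. DESeq2 gave an adjusted p to EGR1 and MYC alone among them and called neither. The interaction, as the log2 change in the clones minus that in the parental line, was -0.18 (SE 0.76) for EGR3, -0.28 (SE 0.24) for EGR1 and 0.08 (SE 0.28) for JUNB. FOSL2 had -0.65 (SE 0.41; adjusted p = 0.641, edgeR, and 0.126 with the block), and the GC and length correction brought it to -0.27 (adjusted p = 0.919, edgeR, and 0.601 with the block). With total counts the value for EGR1 was -0.47. With errors of this size the test does not show that the responses were alike. FOSB, a gene alternatively spliced in neurons, had 0.77 (SE 0.73).

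The knockout clones were next compared with the parental line, with treatment in the model. None of the 10 genes passed in edgeR, where 0.327% of all 15611 genes did. An unadjusted p under 0.05 was found for 6, against 11.4% of all genes, and a positive difference for 8 of the 10, against 51.7%. The median log2 difference of the 10 was 0.87, beside 0.01 over all tested genes. EGR3 had a difference of 2.00 (SE 0.39), EGR2 of 1.44 (SE 0.36), FOSB of 1.03 (SE 0.38), FOSL2 of 1.02 (SE 0.23), JUN of 0.90 (SE 0.15) and EGR1 of 0.83 (SE 0.14), all with higher mean levels in the clones. Their adjusted p-values ran from 0.0861 for EGR1 to 0.385 for FOSB in edgeR. With line as a random replicate block in limma-voom 0 of the 10 passed as well, against 0.295% of all genes.

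JUN shows the pattern most plainly in single libraries. In DMSO it stood at 19.3 CPM in the parental line against 38.0 and 33.8 CPM in clones 1 and 2, and in E2 at 15.6 CPM against 32.7 and 26.0 CPM. All 4 knockout libraries lay above both parental ones, by 1.66-fold to 2.09-fold within a treatment. EGR1 in DMSO was at 53.4 CPM in the parental line and at 105 ± 3.29 CPM (SD, n = 2) over both clones, and in E2 at 109 and 176 ± 13.9 CPM (SD, n = 2). The parental level of EGR1 under E2 was close to the level of the clones under DMSO. FOSL2 in DMSO was at 3.29 CPM against 8.52 ± 1.67 CPM (SD, n = 2), and in E2 at 8.26 against 13.6 ± 1.44 CPM (SD, n = 2).

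Of the 7 genes that averaged 2 CPM or more, FOS and JUN had all 4 knockout libraries above both parental ones, as did 7.9% of the 12367 genes at that level. Both clones were above the parental line within each treatment for 5 of the 7, against 17.3% of such genes, and below it for MYC, against 17.2%. JUNB differed by 0.01 (SE 0.14), and FOSL1 by -0.12 (SE 0.43). For both, the sign varied between clones or treatments. MYC had -0.40 (SE 0.22; adjusted p = 0.498, edgeR), and -0.74 without clone 1 and -0.14 without clone 2. Loss of ETV4 and any other property in which a clone departs from the parental line cannot be told apart here. Without clone 1, EGR3 and FOSL2 passed in edgeR, where 4.09% of all genes did. Without clone 2, EGR1, EGR2, EGR3, FOSB, FOSL2 and JUN passed, where 6.41% of all genes did. Each of these fits sets 1 clone against the parental line with 1 residual degree of freedom, so its p-values hold no spread between clones. DESeq2's Wald test on all libraries called EGR1, EGR3, FOSL2 and JUN, against 3.13% of the genes to which it gave an adjusted p. That fit, like the unpaired edgeR fit, took the libraries of a line as separate samples.

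**Figure D3:**
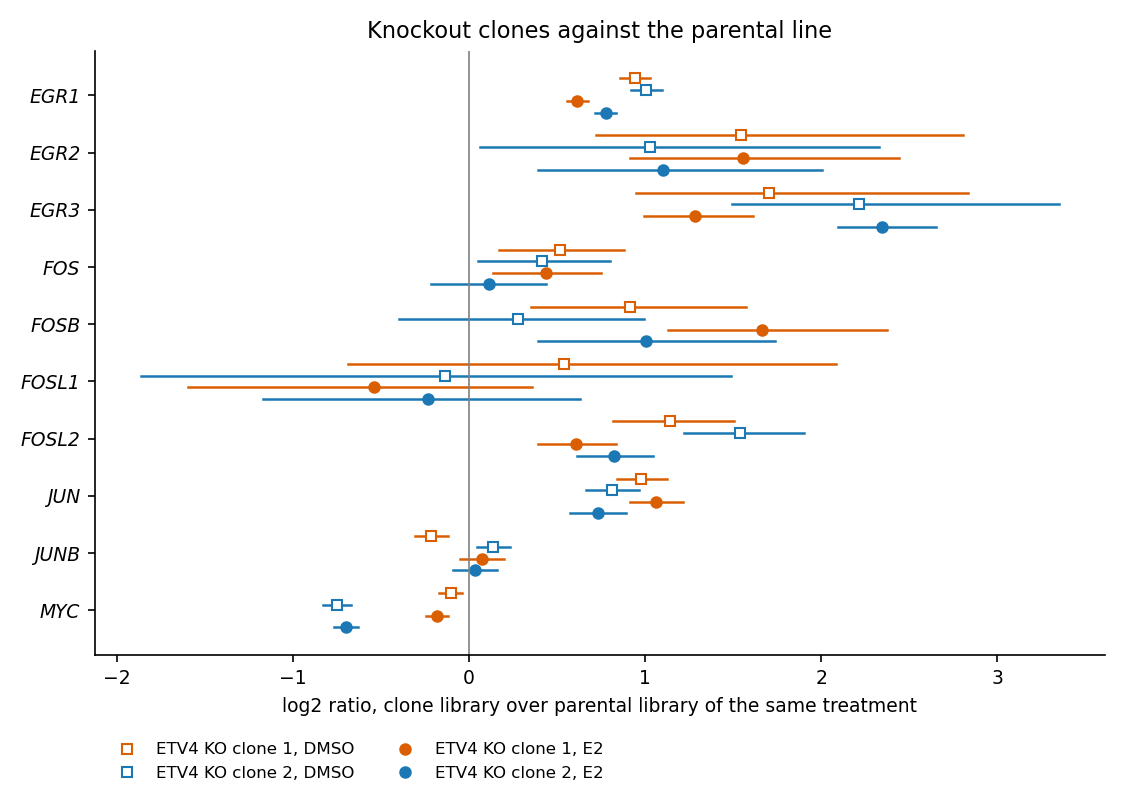
Log2 ratio of each knockout clone to the parental library of the same treatment (horizontal axis) for the 10 genes; open squares are DMSO, filled circles E2, orange clone 1 and blue clone 2. Lines are 95% binomial intervals for counting error only. EGR1, EGR2, EGR3, FOSL2 and JUN lie above 0 with their intervals in all 4 comparisons. FOS and FOSB also lie above 0 in all 4, but not with every interval. JUNB lies near 0 and MYC lies below 0, further in clone 2 than in clone 1.

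The 2 clones were compared with each other, since differences between lines set the scale for the comparison above. None of the 10 genes passed in edgeR, against 0.871% of all genes tested, and DESeq2 called 0, against 2.36%. An unadjusted p under 0.05 was found for 2, against 12.1% of all genes. These were MYC, at -0.58 (SE 0.14) for clone 2 minus clone 1 (adjusted p = 0.171, edgeR), and EGR3, at 0.84 (SE 0.22; adjusted p = 0.214, edgeR). Both passed when the parental line was left out, at -0.57 and 0.88, in a fit in which 18.3% of all genes passed. MYC in clone 1 was thus nearer to the parental line than to clone 2, with 112 CPM in DMSO against 119.9 and 71.3 CPM. For EGR3 under E2, clone 2 stood 2.09-fold above clone 1.

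Other genes of the same pathways were read from lists chosen with earlier results of these data known. Under E2, 1.13% of all genes passed in edgeR, 20.4% had an unadjusted p under 0.05, 7.58% of those with an adjusted p were called by DESeq2 and 48.2% had a positive log2 change, and the counts of each list stand against these shares. Of 48 further immediate early genes 44 could be tested, and under E2 0 passed higher and 1 lower in edgeR (15 had an unadjusted p under 0.05, and DESeq2 called 6), with a median log2 change of 0.13 beside -0.02 over all genes. The one called gene was PLK2, a polo-like kinase gene induced by serum and by p53, which went from 464 to 177 CPM in the parental line, from 398 to 188 CPM in clone 1 and from 342 to 112 CPM in clone 2. PLK2 fell by 1.33 on the log2 scale (SE 0.21; adjusted p = 0.0441, edgeR). With the replicate block, where 2.46% of all genes passed in edgeR, 3 more passed, all higher. They were IER5L, DUSP5, which encodes a nuclear ERK phosphatase, and PHLDA1. For the knockout comparison 0 of the 44 passed in edgeR, 11 had an unadjusted p under 0.05 (11.4% of all genes did) and DESeq2 called 6.

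Partners of the 10 genes were read next. Of 18 genes of AP-1 partners, a list that also holds FOSL1 and FOSL2 and shares genes with the one before, 15 were tested and 0 passed under E2 in edgeR, while 4 had an unadjusted p under 0.05 and DESeq2 called FOSL2 and MAFG. Outside the 10 genes, the largest changes of 1 sign in all lines were those of MAFG at 0.75 (SE 0.21) and MAFK at 0.66 (SE 0.23), small MAF factors that lack an activation domain. Among 8 genes of EGR corepressors and serum response factor cofactors 0 passed in edgeR, 2 had an unadjusted p under 0.05, DESeq2 called ELK4 and NAB2, and 7 had a positive log2 change. ELK4 and ELK3, ETS cofactors of serum response factor, had 0.53 (SE 0.12) and -0.22 (SE 0.12). NAB2, a corepressor that binds EGR proteins and is itself induced by them, was at 38.4 and 78.8 CPM in the parental line, 50.4 and 83.2 CPM in clone 1 and 71.2 and 92.7 CPM in clone 2. Its log2 change was 0.70 (SE 0.18; adjusted p = 0.133, edgeR), and in the paired fit of the clones alone it passed with an adjusted p of 6.17e-04 in edgeR.

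The MYC network, which sets how much MYC pairs with MAX, had 16 tested genes and 0 called under E2 in edgeR, with 7 at an unadjusted p under 0.05 and 3 called by DESeq2, MLXIPL, MNT and MYCL. MLXIPL, a glucose-responsive factor, had a log2 change of 1.66 (SE 0.39), MNT, a repressor that competes for MAX, 0.81 (SE 0.24) and MYCL, a paralog of MYC, -0.83 (SE 0.21), each with an adjusted p over the threshold and the lowest 0.110 (edgeR). With the block, where 2.46% of all genes passed in edgeR, MLXIPL passed. Of 58 tested MYC target genes of ribosome biogenesis and biosynthesis 1 passed higher and 0 lower in edgeR, DESeq2 called 14, 21 had an unadjusted p under 0.05, 46 had a positive log2 change, and the median was 0.29 beside -0.02 over all genes. The called gene was PUS1, an RNA pseudouridine synthase gene, with 13.4 and 37.5 CPM in the parental line, 14.6 and 28.4 CPM in clone 1 and 17.0 and 29.9 CPM in clone 2 and a log2 change of 1.09 (SE 0.17; adjusted p = 0.0408, edgeR). In the clones against the parental line 52 of these 58 had a negative log2 difference, as did 48.3% of all genes, with a median of -0.26, and 0 passed in edgeR (12 had an unadjusted p under 0.05, and DESeq2 called 0). The list also differed between the clones. For clone 2 minus clone 1, 43 of the 58 were negative, as were 49.6% of all genes, with a median of -0.18. All 6 genes known to be repressed by MYC had a negative log2 change under E2, 0 passed in edgeR or DESeq2, and 2 had an unadjusted p under 0.05. The largest were NDRG2 at -0.49 (SE 0.19), NDRG1 at -0.36 (SE 0.19) and CDKN1B, which encodes the cell cycle inhibitor p27, at -0.28 (SE 0.12). In the clones against the parental line, 4 of these 6 had a positive log2 difference and 2 a negative one. The median was 0.04 beside 0.01 over all genes. In edgeR 1 passed, CDKN1A, against 0.327% of all genes, and DESeq2 called CDKN1A and NDRG1. CDKN1A, which encodes the cell cycle inhibitor p21, was higher in the clones by 1.10 (SE 0.12, adjusted p = 0.0271 in edgeR). It had 43.2 and 34.6 CPM in the parental line, 88.6 and 73.4 CPM in clone 1 and 91.7 and 79.3 CPM in clone 2.

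**Figure D4:**
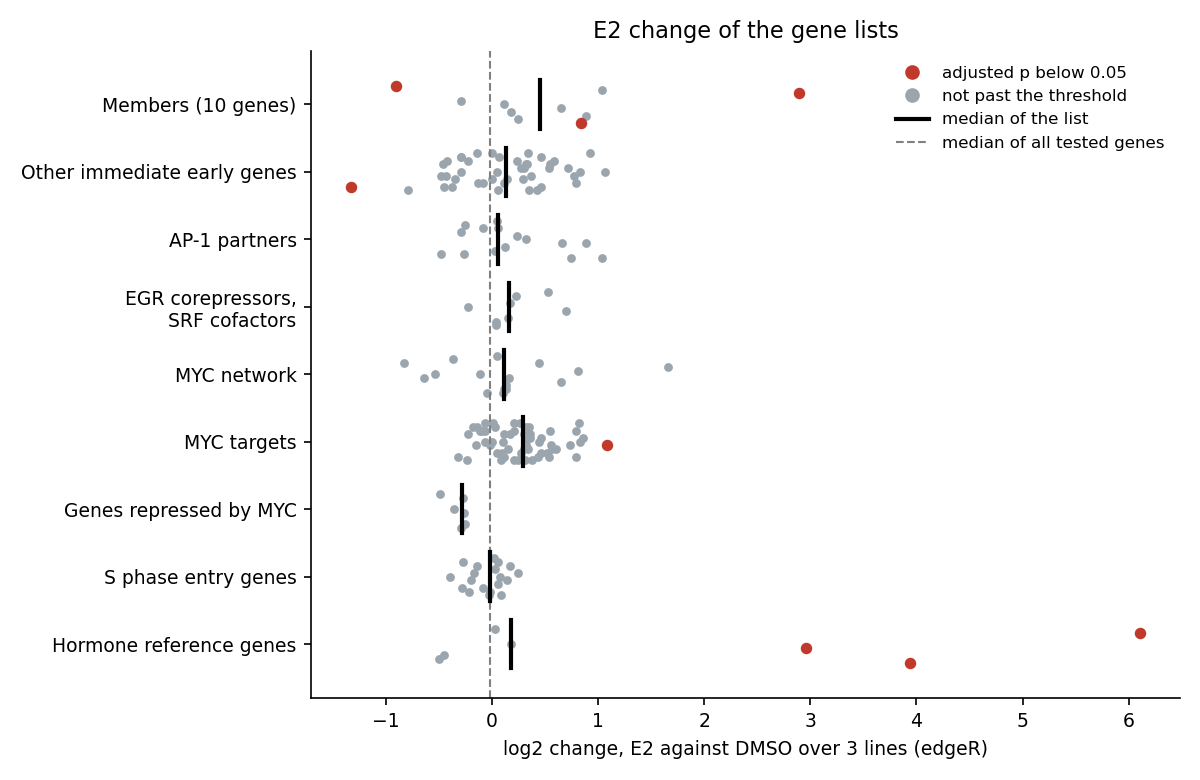
Log2 change of E2 against DMSO over the 3 lines in edgeR (horizontal axis) for each tested gene of the 10 members and of 8 further lists; red points passed an adjusted p of 0.05, black bars are list medians and the dashed line is the median of all tested genes. The median of the 10 members is 0.45 and that of the 19 S phase entry genes is -0.02.

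The 2 treatment times in the labels were set beside these values. Genes in this class that respond within the first hour of a stimulus are typically back near their starting level some hours later. Of the 10 genes, EGR3 rose 7.40-fold and EGR1 1.79-fold over the lines, JUNB fell, and FOS, with a log2 change of 0.24 (SE 0.19), and the other 6 did not pass in edgeR. Of the 44 further immediate early genes only PLK2 passed there, and it fell. A positive log2 change was found for 27 (48.2% of all genes) and an unadjusted p under 0.05 for 15 (20.4% of all genes). With the replicate block IER5L, DUSP5 and PHLDA1 passed as well, each higher in E2, against 2.46% of all genes. In the paired fit of the clones alone 6 of the list passed higher and 5 lower, against 15% of all genes. In the list of hormone reference genes, 3 of 7 tested passed in edgeR, all higher in E2, and 5 had a positive log2 change. PGR, the progesterone receptor gene, went from 1.61 to 34.8 CPM in the parental line, from 7.31 to 71.5 CPM in clone 1 and from 2.66 to 62.7 CPM in clone 2, a log2 change of 3.94 (SE 0.38; adjusted p = 0.00772, edgeR). ALPP, which encodes the placental alkaline phosphatase, went from 0.202 to 15.7, from 0.251 to 7.54 and from 0.171 to 21.1 CPM in the same order of lines. Its log2 change was 6.11 (SE 0.51; adjusted p = 0.00540, edgeR), and its reads can be shared with close copies of the gene. GREB1, a hormone-induced cofactor gene, went from 5.14 to 50.1, from 8.26 to 59.95 and from 9.83 to 66.2 CPM, with a log2 change of 2.96 (SE 0.16; adjusted p = 0.00214, edgeR). Among 8 tested heat shock genes 0 passed in edgeR, 2 had an unadjusted p under 0.05 and DESeq2 called BAG3, which had 0.88 (SE 0.17), beside HSPH1 at 0.47 (SE 0.18) and DNAJA1 at 0.31 (SE 0.15). Genes of S phase entry, which estrogen raises as cells reach DNA synthesis, showed 0 of 19 past the threshold in edgeR (1 had an unadjusted p under 0.05, and DESeq2 called 0), with a median log2 change of -0.02. CCNA2, RRM2 and CDC25A had the largest changes with 1 sign in all lines, at -0.39 (SE 0.16), -0.28 (SE 0.13) and 0.24 (SE 0.13). Each line was sampled once per treatment, so no time course can be read, and from these counts the label of 1 h and that of 8 h cannot be told apart by a test.

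Genes with the most similar profile over the 6 libraries were found by the root mean square difference of centred log2 levels among 12366 genes. For EGR1 these were INF2 (0.0908), SEMA3B (0.0963) and ZBTB42 (0.112), beside a median of 0.631 over all genes. For FOS they were FAM222A (0.0554), NPAS3 (0.0628) and ATP2B1 (0.0662), and the median was 0.341. For MYC they were PARVB (0.0521), SLC6A15 (0.0669) and SORD (0.0671), with a median of 0.398. The ranking describes 6 libraries that share lines, and no link between these genes was tested. FOS had 107 to 185 counts in a library, so counting error enters its distances.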

How the data were processed

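RNA-seq was measured in 6 libraries: the parental Ishikawa line and 2 ETV4 knockout clones, each in DMSO and in E2. The authors deposited raw counts per gene, and a second table of normalized counts, a signal equal to the raw counts divided by DESeq2 median-ratio size factors recomputed here (0.926 to 1.19), which was used only for that check. The submitters' processing notes name HISAT2, SAMtools, Subread, DESeq2 and the build hg19, with no versions; annotation and strand use are not given in the sources used here, so hg19 coordinates are not printed. Column names with DMOS were taken as DMSO and those with ER as E2.

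Counts were tested in R 4.3.3 with edgeR 4.0.16 (quasi-likelihood test, TMM, filterByExpr, Benjamini-Hochberg adjustment over all genes tested), which kept 15611 of 26364 genes (14881 for the clones alone); all 10 genes were kept. The scripts were tested on simulated data. Standard errors divide the size of a log2 coefficient by the root of its F statistic. Ratios of single libraries used a prior count of 2. Alternatives were other scalings and filters, DESeq2 1.42.0, limma-voom (limma 3.58.1), the replicate block, each line left out, other prior counts (0.5 and 5), and, chosen after seeing the data, a GC and length correction from GENCODE 29 and the knockout comparison within 1 treatment. The clone numbers pair libraries because they name the same cell line; across tested genes, the clone 2 minus clone 1 difference had a correlation of 0.626 between treatments. All 10 genes were named. From the other lists, up to 6 called genes per direction with a mean of at least 2 CPM were named, or else up to 3 with the largest change of 1 sign in all lines. IER5L, DUSP5, PHLDA1 and the paired values of NAB2 were added after their values were seen. The 10 genes and the lists were chosen with earlier results of these data known.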

Additional observations from a re-analysis of the deposited data

Results flagged for a closer look

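FOSB had an E2 change in the parental line opposite to that of both clones. From DMSO to E2 it went from 34 to 32 counts in the parental line, a log2 ratio of -0.39 (95% binomial interval -1.16 to 0.32), against 0.36 in clone 1 and 0.33 in clone 2. All 3 intervals include 0. The test of the difference, the interaction, gave 0.77 (SE 0.73; adjusted p = 0.741, edgeR) and did not pass.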

How the results depend on the processing

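Among the 10 genes, the number called under E2 over the lines was 3 and stayed at 3 under median-ratio scaling, no filter, the stricter filter, limma-voom, the replicate block and the GC and length correction. It was 1 (EGR3) with total count scaling, where EGR1 and JUNB had an adjusted p of 0.0535 (edgeR), 4 (FOSL2 added) in DESeq2 and with the block and the correction together, and 0 to 4 with a line left out, 0 being without the parental line. For the knockout effect it was 0, and 4 in DESeq2, 1 (EGR1) with the GC and length correction, and 2 to 6 with a clone left out. For the clones alone it was 0, and 3 in DESeq2, 4 with the replicate block and 5 (JUN added) with block and correction together. For clone 2 minus clone 1 it was 0, and 1 (MYC) with the correction and 2 without the parental line. It was 0 for the interaction in every alternative run.

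Counts over all genes moved more. Under E2 over the lines 176 genes were called, against 1115 in DESeq2, 384 with the replicate block, 391 with the correction, 1756 with both, and 49 to 3353 with a line left out. The knockout count of 51 became 460 in DESeq2, 123 with the correction, 421 in the DMSO libraries alone, 4 in the E2 libraries alone, and 631 to 996 with a clone left out. For the clones alone 49 became 310 in DESeq2, 2227 with the block and 3148 with block and correction. The interaction count of 0 became 26 in DESeq2, 2470 with the block and 1079 with block and correction. Clone 2 minus clone 1 gave 136 genes, and 236 without a filter, 63 with at least 10 counts in every library, 369 in DESeq2, 368 with the correction and 2723 without the parental line. The cause of these moves was not tested. Fits with a clone left out, and the paired fits of the clones and of the interaction, have 1 residual degree of freedom.

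Signs that turned belonged to values near 0: FOSB under E2, at -0.041 without clone 1 and up to 0.35 with another line left out, JUNB in the knockout effect, at -0.074 without clone 2, 0.071 without clone 1 and -0.027 in DMSO alone, FOSL1 in DMSO alone (0.30), and the interaction of JUN with total counts (-0.18) or the stricter filter (-0.023), of JUNB with total counts (-0.11) and of EGR2 in limma-voom (0.0014). Total counts moved the median of all genes to 0.11 in the knockout effect and to -0.22 in the interaction. Apart from the clones alone, and FOSL2 under E2 when the block was joined to the correction, the block changed no call among the 10 genes. Low counts limit FOSL1, EGR2 and FOSB. The replicate block cannot be run for clone 2 minus clone 1, whose fit holds line already. Leaving a clone out of the clones alone or of the interaction was not run, since no residual degree of freedom is then left.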
